A study of Homo sapiens with 6 samples.

Results

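NRF2, the product of NFE2L2, is the transcription factor that switches on genes against oxidants and electrophiles. The genes described here were NFE2L2, its inhibitor KEAP1 and 8 genes that NRF2 is known to regulate: HMOX1, NQO1, AKR1C2, GCLM, GCLC, SLC7A11, TXNRD1 and SRXN1. They were chosen by name, with earlier results of these data known, and every probe annotated to one of them was taken, over all arrays. These were 10 of the 20045 genes named on the array, with 21 probes. Of the 21 probes, 13 were detected on at least 2 arrays and tested, and they covered 9 of the 10 genes.

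In unstressed cells KEAP1 holds NRF2 in the cytoplasm and passes it to a ubiquitin ligase built on CUL3 and RBX1, so that the protein is degraded as fast as it is made. Electrophiles and oxidants modify cysteines of KEAP1, and NRF2 then collects in the nucleus, pairs with a small MAF protein and binds a short DNA motif called the antioxidant response element. The genes it turns on make and recycle glutathione and thioredoxin, reduce quinones and carbonyls, and break down heme. Because NRF2 is set mainly by protein turnover, the mRNA of NFE2L2 is not a measure of its activity.

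RNA came from TT cells, a human line from a medullary carcinoma, the tumor of the thyroid C cells. Cells were treated with 10 μM Y15 (2 arrays) or 10 μM PF-04554878 (2 arrays), or left untreated (2 arrays), and were collected a day later per the methods of the study. Both compounds are inhibitors of focal adhesion kinase (FAK), an adhesion kinase, Y15 being directed at its autophosphorylation and PF-04554878, now called defactinib, at its kinase activity. Per the methods each group had a pair of plates, all of a single line, and no repeat is described. At doses below these, the paper reports death of TT cells with Y15 and loss of viability with PF-04554878. It also reports that Y15 detached TT cells. The state of the cells put on the arrays is not described. The solvent was PBS for Y15 and DMSO for PF-04554878, and no vehicle is named for the untreated cells, so a compound and its solvent cannot be told apart. The labels do not tie arrays to plates, and the p-values therefore cover only the variation between these arrays, part or all of which may be technical.

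Levels are given as log2 of the quantile normalized bead intensity of a probe, and levels of different probes were not compared. A probe counted as detected on an array when its detection p-value was below 0.01, and between 15215 and 18488 probes were detected per array. Arrays of one group correlated at 0.990 to 0.995 and those of different groups at 0.875 to 0.953 (Pearson's r over probes). The mean net intensity, after subtraction of the background, was 169 and 180 on the Y15 arrays, 252 and 242 on the PF-04554878 arrays and 420 and 353 on the untreated arrays, so that treated and untreated arrays differed in brightness before normalization. Of 9 C cell markers with a probe, 8 were detected on all arrays, while the 4 thyroid follicular markers were detected on none. A call required an adjusted p below 0.05 in limma and a change of at least 1.2-fold, which is 0.26 on the log2 scale.

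The antioxidant response element was looked for in the promoters, since it is the motif that joins these genes into one pathway. RefSeq promoter windows (GRCh38.p14, 250 bases before to 50 after a transcription start) were at hand for 8 of the 10 genes, in 11 windows, and those of HMOX1 and SLC7A11 were not analysed here. The core searched was TGACNNNGC on either strand, which reads GCNNNGTCA in reverse. It was present in 4 of the 11 windows (36.4%), against 13.3% of 35116 windows of all genes, and in 3 of the 8 genes (37.5%), against 16.1% of 27305 genes. These shares are descriptions, with no test. The 3 genes were KEAP1, GCLM and TXNRD1, and the stretch from 120 bases before to 10 after each start is shown for them, 5′ to 3′ on the strand of the gene, with the core in capitals.
KEAP1 start 2: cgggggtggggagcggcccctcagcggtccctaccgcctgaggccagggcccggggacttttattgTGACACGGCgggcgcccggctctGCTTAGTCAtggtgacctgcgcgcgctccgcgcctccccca
GCLM: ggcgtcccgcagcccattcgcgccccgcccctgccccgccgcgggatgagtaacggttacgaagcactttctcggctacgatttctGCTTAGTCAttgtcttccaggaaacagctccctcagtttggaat
TXNRD1 start 1: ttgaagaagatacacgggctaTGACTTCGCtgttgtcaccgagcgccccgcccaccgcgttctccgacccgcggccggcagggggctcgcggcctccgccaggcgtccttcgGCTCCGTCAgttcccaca
TXNRD1 start 2: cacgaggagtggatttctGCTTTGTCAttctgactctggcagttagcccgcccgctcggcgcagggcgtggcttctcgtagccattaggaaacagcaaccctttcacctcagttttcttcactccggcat
The KEAP1 stretch lies at chr19:10502762-10502891 on the minus strand, the GCLM stretch at chr1:93909421-93909550 on the minus strand, and the TXNRD1 stretches at chr12:104215659-104215788 and chr12:104286912-104287041 on the plus strand. KEAP1 start 2 held 2 cores, at -54 to -46 on the strand of the gene and at -31 to -23 on the other. GCLM held 1 core, at -34 to -26, with the same letters as the second core of KEAP1, GCTTAGTCA. TXNRD1 held 2 cores at its first start (-99 to -91 and -8 to 1) and 1 at its second (-102 to -94). A match of these letters describes the sequence and is not a measured binding site. Bases outside these windows were not searched, so a gene without a core here may have one elsewhere.

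**Figure D1:**
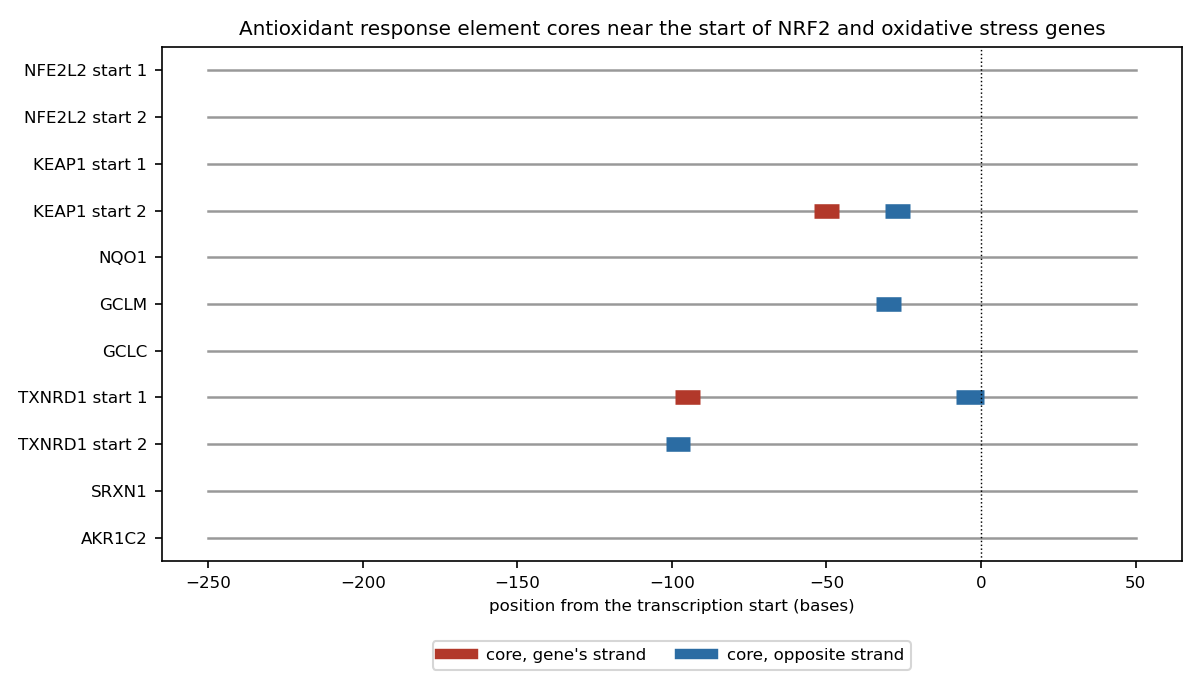
Promoter windows of 8 genes (11 starts), with the position from the transcription start in bases on the horizontal axis and antioxidant response element cores as bars, red on the strand of the gene and blue on the opposite strand. Cores lie in 4 windows, of KEAP1, GCLM and both starts of TXNRD1.

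With quantile normalization, Y15 raised more of the tested probes than it lowered, while PF-04554878 moved as many down as up. Of the 13 tested probes, 4 were higher and 0 lower in Y15-treated than in untreated cells (30.8% and 0%), against a background of 16% higher and 20.4% lower among the 18876 probes tested. The 4 were HMOX1, AKR1C2, SRXN1 and 1 of 2 GCLM probes. At an unadjusted p below 0.05 the count was 7, and 1 of those, TXNRD1 probe 2, pointed down. In PF-04554878-treated against untreated cells 4 probes were higher and 4 lower (30.8% each), close to the background of 28.2% higher and 29.8% lower. The 4 higher probes were of HMOX1, NQO1, GCLM and AKR1C2, and the 4 lower ones of KEAP1 (2 probes), GCLC and SRXN1. Set against PF-04554878 directly, Y15 had 8 probes higher and 2 lower (61.5% and 15.4%), against a background of 27.8% and 28.9%. The median log2 change of the 13 probes was 0.15 for Y15 against untreated cells, 0.03 for PF-04554878 against untreated cells and 0.42 for Y15 against PF-04554878, beside -0.05, -0.01 and 0 over all probes. These directions against untreated cells depended on the scaling of the arrays. Scaled to their median over all probes, which put the median tested probe at -0.67 for Y15 and -0.45 for PF-04554878, the counts were 1 higher and 9 lower for Y15 and 1 higher and 8 lower for PF-04554878. Scaled to their median over the tested probes, which put it at 0.14 and 0.31, they were 4 and 4 for Y15 and 5 and 4 for PF-04554878. Between the compounds both scalings gave 5 higher and 2 lower. HMOX1 passed the detection filter only through the treated arrays, so these counts include 1 probe that had to differ. The comparisons with untreated cells share the same 2 arrays. Since the genes were chosen with earlier results of these data known, the shares beside the background are descriptions, with no test.

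**Figure D2:**
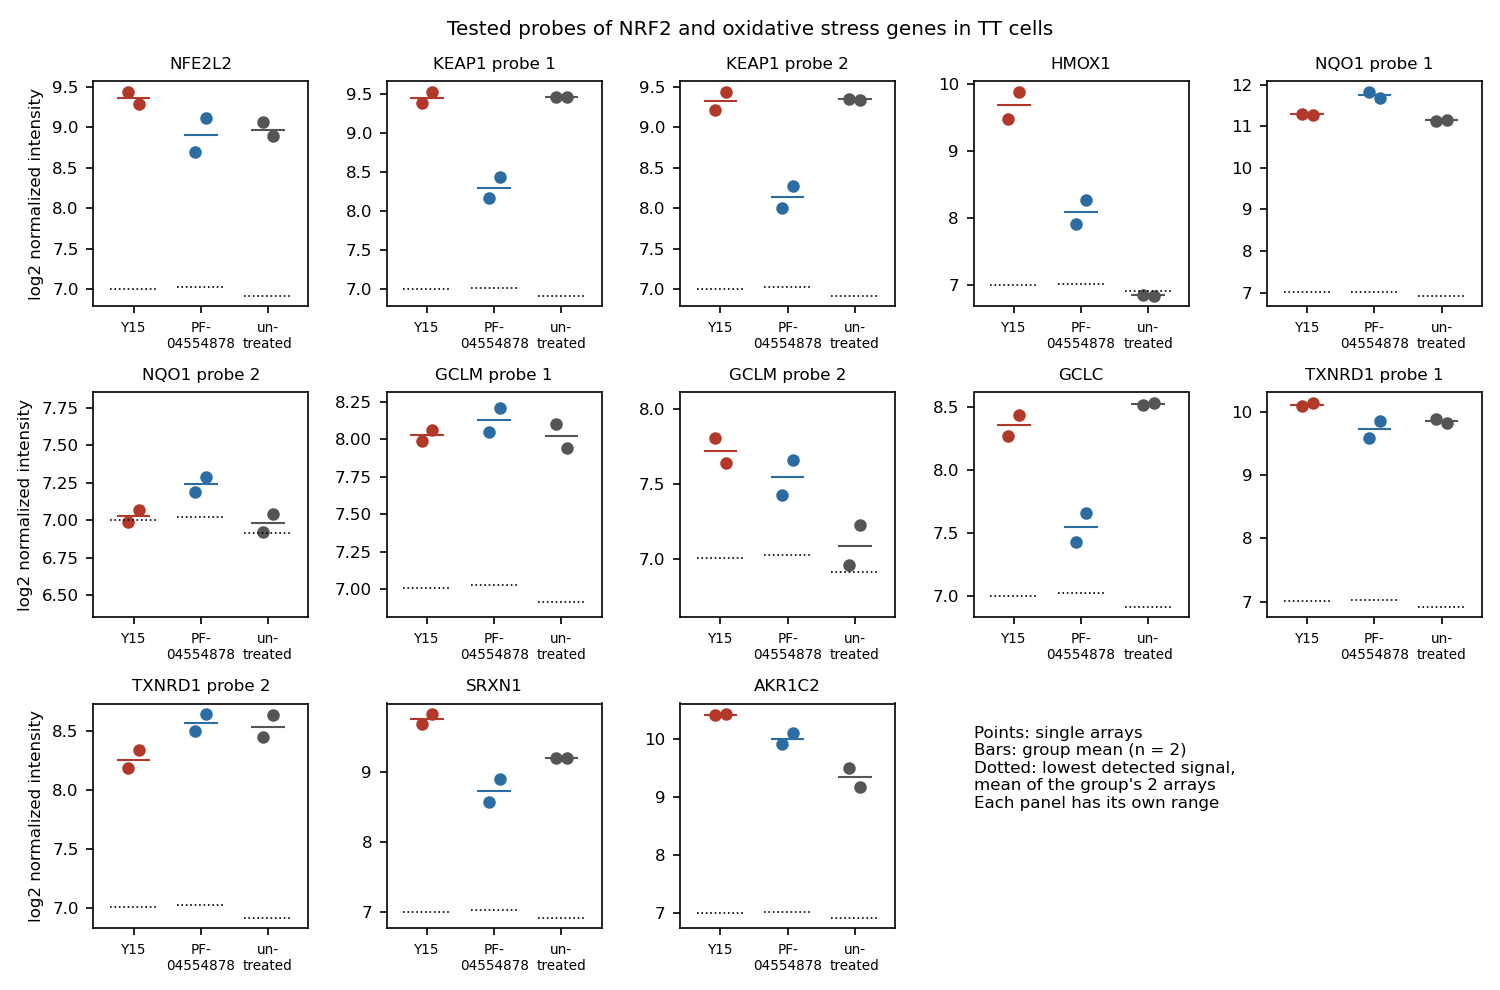
Log2 normalized intensity (vertical axis, each panel with its own range) of the 13 tested probes on the 2 Y15, 2 PF-04554878 and 2 untreated arrays, with points for arrays, bars for group means and dotted lines for the lowest detected signal. HMOX1 lies below that line in untreated cells only, at 6.85 and 6.84, and both KEAP1 panels and GCLC are lowest under PF-04554878.

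The regulators were examined first. NFE2L2 had levels of 9.44 and 9.29 on the Y15 arrays, 8.70 and 9.11 on the PF-04554878 arrays and 9.06 and 8.89 on the untreated arrays. Y15 values lay above the others without overlap, while PF-04554878 values lay on both sides of the untreated ones. The log2 change was 0.39 ± 0.14 for Y15 against untreated cells (SE, 95% interval 0.06 to 0.72, limma adjusted p = 0.062) and -0.07 ± 0.14 for PF-04554878 against untreated cells (interval -0.39 to 0.26, adjusted p = 0.71), and neither was called. Y15 exceeded PF-04554878 by 0.46 ± 0.14 (interval 0.13 to 0.78, adjusted p = 0.023). This last call was lost without Y15 replicate 1 (0.38, adjusted p = 0.15), Y15 replicate 2 (0.53, adjusted p = 0.061) or PF-04554878 replicate 1 (0.25, adjusted p = 0.14). The Y15 change against untreated cells was called when either PF-04554878 array was left out (0.39, adjusted p = 0.029 in each case). With median scaling over all probes NFE2L2 turned to -0.77 under Y15 and -1.01 under PF-04554878, both called lower, and the difference between the compounds was 0.24 (adjusted p = 0.32). Over tested probes NFE2L2 gave 0.04 under Y15 (adjusted p = 0.83) and -0.25 under PF-04554878 (adjusted p = 0.15). The difference between the compounds was then 0.29 (adjusted p = 0.14), and none of these was called.

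KEAP1, which tethers NRF2 for degradation, fell under PF-04554878, and its change under Y15 was not called. Its brighter probe (ILMN_2410772) had 9.38 and 9.53 on the Y15 arrays, 8.17 and 8.44 on the PF-04554878 arrays and 9.46 and 9.46 on the untreated arrays. Both PF-04554878 values were below all the others and the Y15 values lay around the untreated ones. PF-04554878 against untreated cells gave -1.16 ± 0.11 (0.447-fold, interval -1.42 to -0.90, adjusted p = 5e-05) and Y15 against untreated cells -0.01 ± 0.11 (interval -0.27 to 0.25, adjusted p = 0.96). Y15 against PF-04554878 gave 1.15 ± 0.11 (2.22-fold, adjusted p = 5.6e-05). The second tested probe (ILMN_2410771) gave -1.21 ± 0.12 for PF-04554878 and -0.02 ± 0.12 for Y15 against untreated cells, within 0.05 of the first. A probe of another KEAP1 transcript was detected on no array, with levels of 6.64 to 6.77. The fall under PF-04554878 and the difference between the compounds held in every alternative run, with PF-04554878 changes of the brighter probe between -2.10 and -1.02. Under Y15 that probe was called lower with median scaling over all probes (-1.14, adjusted p = 0.0004) and over tested probes (-0.34, adjusted p = 0.041). In bulk RNA a lower level can come from less RNA per cell or from fewer cells that express the gene, and these cannot be told apart.

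HMOX1, the inducible heme oxygenase that opens heme to biliverdin, iron and carbon monoxide, had the greatest change among these genes. Its levels were 9.49 and 9.89 on the Y15 arrays, 7.92 and 8.27 on the PF-04554878 arrays and 6.85 and 6.84 on the untreated arrays. On both untreated arrays the probe was not detected, and the 3 groups did not overlap. Since the untreated level has only an upper limit, folds are given as bounds, from the mean of the treated arrays over the lowest signal detected on the untreated arrays (6.92). HMOX1 was at least 6.85-fold higher in Y15-treated than in untreated cells (means 9.69 and 6.85). It was at least 2.27-fold higher in PF-04554878-treated than in untreated cells (means 8.10 and 6.85). No p-value is given for these bounds, since HMOX1 passed the detection filter only through the treated arrays and so had to differ. Between the compounds, where it was detected on all 4 arrays, Y15 was higher by 1.60 ± 0.16 (3.02-fold, interval 1.24 to 1.95, adjusted p = 5.5e-05). The call between the compounds held in every alternative that could test it. The calls against untreated cells did also, but there the probe had to differ.

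HMOX1 is also a known gene of macrophages, so immune markers were read beside it. PTPRC, CD3E and MS4A1, which mark leukocytes, T cells and B cells, were detected on no array. CD68, a lysosomal protein abundant in macrophages, averaged 9.38 in Y15-treated, 8.71 in PF-04554878-treated and 7.49 in untreated cells, and CD14 averaged 7.83, 8.03 and 7.63 in the same groups. The summed level of CD68 and CD14, the 2 of 5 immune markers that were detected, was 855 to 934 on the Y15 arrays, 661 to 699 on the PF-04554878 arrays and 358 to 400 on the untreated arrays, and its part in the HMOX1 values was not tested. The genes whose values lay nearest to those of HMOX1 over the 6 arrays, each centered on its untreated mean, were DDIT4 (Euclidean distance 0.50), FBXO32 (0.55), USP49 (0.80), ZNF786 (0.82) and LEP (0.83).

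NQO1 and AKR1C2 reduce quinones and carbonyls, and both are NRF2 targets. NQO1, the quinone reductase widely used as a readout of NRF2, had levels of 11.30 and 11.28 on the Y15 arrays, 11.83 and 11.67 on the PF-04554878 arrays and 11.13 and 11.16 on the untreated arrays with its brighter probe. The 3 groups did not overlap, with PF-04554878 highest. PF-04554878 raised it by 0.61 ± 0.09 (1.53-fold, interval 0.40 to 0.82, adjusted p = 0.00054), and Y15 gave 0.15 ± 0.09 against untreated cells (interval -0.06 to 0.36, adjusted p = 0.24). Y15 against PF-04554878 was -0.46 ± 0.09 (0.726-fold, adjusted p = 0.0026), the opposite order to HMOX1. The dimmer NQO1 probe was detected on 4 arrays and had 6.99 and 7.07 under Y15, 7.19 and 7.29 under PF-04554878 and 6.92 and 7.04 in untreated cells. PF-04554878 was highest with this probe also, and its change of 0.26 ± 0.09 (adjusted p = 0.038) fell just short of the fold required. The rise under PF-04554878 was lost where arrays were scaled to their median over all probes (0.09, adjusted p = 0.56), and the difference between the compounds held in every alternative.

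AKR1C2 is an aldo-keto reductase that inactivates steroids and reduces carbonyl compounds. The tested probe (ILMN_2412336) had 10.41 and 10.44 on the Y15 arrays, 9.92 and 10.10 on the PF-04554878 arrays and 9.50 and 9.17 on the untreated arrays. The groups did not overlap and stood in the order Y15, PF-04554878, untreated. The change was 1.09 ± 0.12 for Y15 against untreated cells (2.13-fold, interval 0.80 to 1.37, adjusted p = 0.00045) and 0.67 ± 0.12 for PF-04554878 against untreated cells (1.59-fold, interval 0.39 to 0.95, adjusted p = 0.0018). Y15 exceeded PF-04554878 by 0.42 ± 0.12 (adjusted p = 0.019), a call lost without Y15 replicate 1 (0.43, adjusted p = 0.079), Y15 replicate 2 (0.40, adjusted p = 0.096) or PF-04554878 replicate 1 (0.33, adjusted p = 0.12), and with background correction (0.45, adjusted p = 0.057) or median scaling over all probes (0.10, adjusted p = 0.7) or over tested probes (0.15, adjusted p = 0.43). Scaled to the median over all probes, the changes against untreated cells turned to -0.07 for Y15 and -0.16 for PF-04554878, which was 0.60 and 0.29 above the median tested probe.

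The other 5 probes of AKR1C2 were not tested, 4 being detected on no array and 1 (ILMN_1773417) on a single PF-04554878 array. That probe had 6.94 and 6.73 under Y15, 6.96 and 7.23 under PF-04554878 and 6.76 and 6.78 in untreated cells, all near the detection limit. AKR1C1, AKR1C2 and AKR1C3 are close relatives in sequence, and a probe of one may bind transcripts of another. The AKR1C2 value is therefore uncertain in its gene. The AKR1C1 probe was detected on no array. AKR1C3, which makes active androgens and prostaglandins, had 10.02 and 10.09 under Y15, 8.54 and 8.80 under PF-04554878 and 9.39 and 9.17 in untreated cells. It was higher by 0.77 under Y15 (adjusted p = 0.0017) and lower under PF-04554878 (-0.61, adjusted p = 0.0022), whereas the AKR1C2 probe was higher under both.

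**Figure D3:**
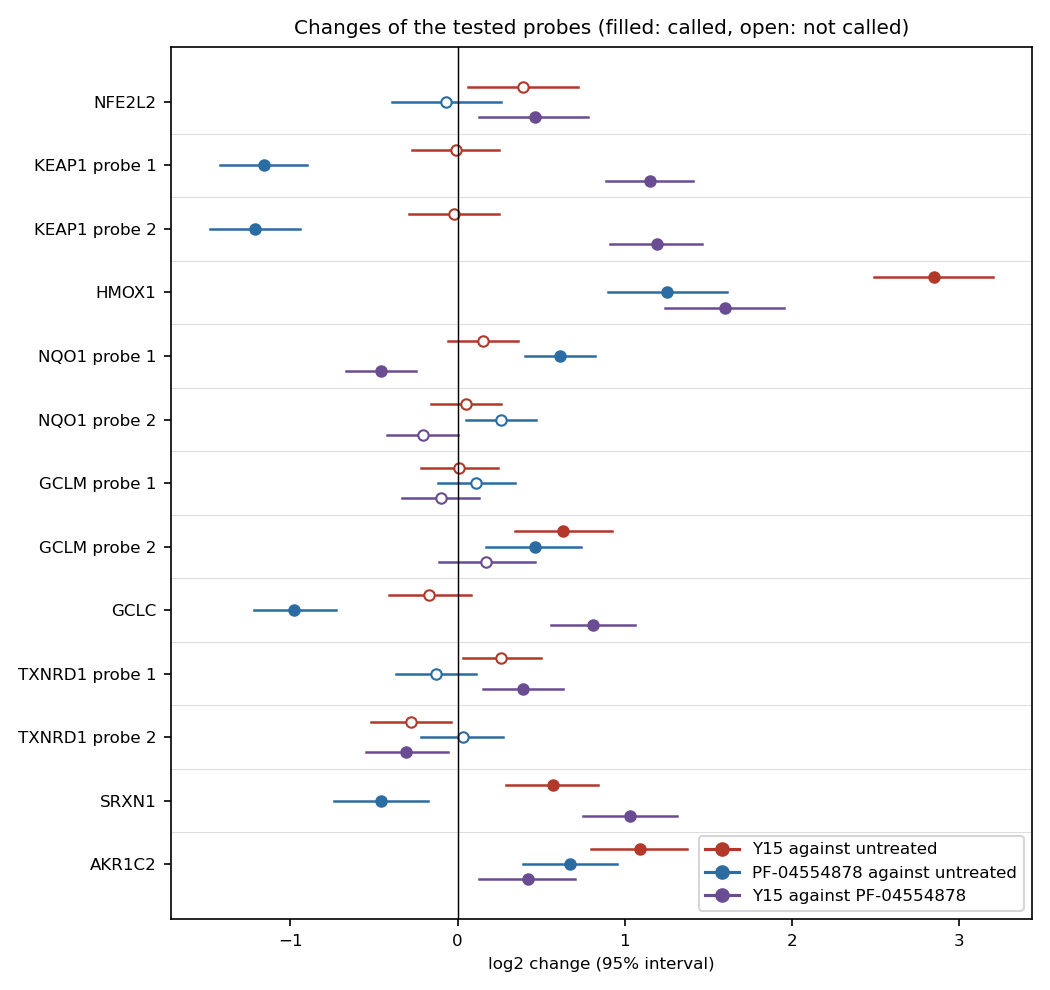
Log2 change (horizontal axis, with 95% interval) of the 13 tested probes for Y15 against untreated cells (red), PF-04554878 against untreated cells (blue) and Y15 against PF-04554878 (purple), with filled points for calls. SRXN1 lies right of 0 for Y15 (0.57) and left of 0 for PF-04554878 (-0.46), and the fitted HMOX1 changes against untreated cells rest on an untreated level below detection.

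Glutathione is made by glutamate-cysteine ligase, of which GCLC is the catalytic and GCLM the modifier subunit. GCLC had levels of 8.27 and 8.43 on the Y15 arrays, 7.43 and 7.66 on the PF-04554878 arrays and 8.51 and 8.53 on the untreated arrays. Both PF-04554878 values lay below the other 4, and the Y15 values were just below the untreated ones. The change under PF-04554878 was -0.98 ± 0.11 (0.508-fold, interval -1.22 to -0.73, adjusted p = 0.0001), while Y15 gave -0.17 ± 0.11 (interval -0.41 to 0.08, adjusted p = 0.25). Y15 exceeded PF-04554878 by 0.81 ± 0.11 (1.75-fold, adjusted p = 0.00031), and this difference and the fall under PF-04554878 held in every alternative. Under Y15 it was called lower with median scaling over all probes (-1.24, adjusted p = 0.00013) and over tested probes (-0.43, adjusted p = 0.0068). A second GCLC probe was detected on no array, with levels of 6.59 to 6.84.

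The 2 GCLM probes disagreed. The brighter one (ILMN_1788547) had 7.99 and 8.06 under Y15, 8.05 and 8.21 under PF-04554878 and 8.10 and 7.94 in untreated cells, and the 3 groups overlapped. Its changes were 0.01 ± 0.10 for Y15 (adjusted p = 0.96) and 0.11 ± 0.10 for PF-04554878 (adjusted p = 0.37) against untreated cells. The dimmer one (ILMN_2225974) had 7.81 and 7.64 under Y15, 7.43 and 7.66 under PF-04554878 and 6.96 and 7.23 in untreated cells, so that all treated values lay above both untreated ones. It was called higher by 0.63 ± 0.13 under Y15 (1.55-fold, adjusted p = 0.0059) and by 0.46 ± 0.13 under PF-04554878 (1.37-fold, adjusted p = 0.014). The Y15 call was lost without Y15 replicate 1 (0.54, adjusted p = 0.064), and the PF-04554878 call without untreated replicate 1 (0.32, adjusted p = 0.072) or PF-04554878 replicate 2 (0.34, adjusted p = 0.098). Neither was called with median scaling over all probes (0.16 for Y15 and 0.07 for PF-04554878). Both probes were designed on the same transcript, and why they differ was not tested.

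SLC7A11 is the cystine carrier of system xc-, which feeds glutathione synthesis and protects cells from ferroptosis. Its only probe had 6.88 and 6.96 on the Y15 arrays, 7.01 and 7.22 on the PF-04554878 arrays and 6.82 and 6.89 on the untreated arrays. It was detected on PF-04554878 array 2 alone and was not tested. No fold is given for it. SLC3A2, the heavy chain that carries SLC7A11 and other amino acid transporters to the membrane, was bright and is described with the wider pathway.

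TXNRD1 and SRXN1 keep the thioredoxin system reduced. TXNRD1, the cytosolic thioredoxin reductase, had 2 tested probes, designed on different transcripts. Probe 1 (NM_001093771) had 10.09 and 10.14 on the Y15 arrays, 9.59 and 9.85 on the PF-04554878 arrays and 9.88 and 9.82 on the untreated arrays. Probe 2 (NM_182743) had 8.19 and 8.34 under Y15, 8.50 and 8.65 under PF-04554878 and 8.45 and 8.64 in untreated cells. Y15 values were thus the highest with probe 1 and the lowest with probe 2. Against untreated cells Y15 gave 0.26 ± 0.10 (interval 0.03 to 0.50, adjusted p = 0.08) with probe 1 and -0.28 ± 0.11 (interval -0.52 to -0.04, adjusted p = 0.07) with probe 2. PF-04554878 gave -0.13 ± 0.10 (adjusted p = 0.31) and 0.03 ± 0.11 (adjusted p = 0.84) with the same probes. The probe 1 change under Y15 was called without either PF-04554878 array (0.26, adjusted p = 0.046), and with median scaling over all probes both probes were lower under both compounds (-1.35 to -0.86). With median scaling over tested probes Y15 gave -0.06 with probe 1 (adjusted p = 0.69) and -0.54 with probe 2 (adjusted p = 0.0023, called lower).

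Between the compounds both TXNRD1 probes were called, in opposite directions, though neither call held in every alternative. Y15 against PF-04554878 was 0.39 ± 0.10 with probe 1 (1.31-fold, adjusted p = 0.012) and -0.31 ± 0.11 with probe 2 (0.808-fold, adjusted p = 0.035), 0.70 apart. The probe 1 call was lost without Y15 replicate 1 (0.42, adjusted p = 0.05), Y15 replicate 2 (0.37, adjusted p = 0.069) or PF-04554878 replicate 1 (0.27, adjusted p = 0.065), and the probe 2 call without Y15 replicate 1 (-0.24, adjusted p = 0.19), Y15 replicate 2 (-0.38, adjusted p = 0.058) or PF-04554878 replicate 2 (-0.23, adjusted p = 0.17). Probe 1 was also not called with median scaling over all probes (0.10, adjusted p = 0.63) or over tested probes (0.15, adjusted p = 0.34), nor probe 2 with background correction (-0.43, adjusted p = 0.062). The promoter table also holds 2 starts for this gene, printed above, but nothing in the files joins a probe to a start. The genes nearest to TXNRD1 probe 1 over the 6 arrays were GNAI3 (Euclidean distance 0.08), LDB1 (0.09), BPNT1 (0.11), NAIF1 (0.12) and B3GNT4 (0.13).

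SRXN1, sulfiredoxin, restores peroxiredoxins that peroxide has over-oxidized. Its levels were 9.70 and 9.84 on the Y15 arrays, 8.57 and 8.91 on the PF-04554878 arrays and 9.20 and 9.20 on the untreated arrays. Y15 values lay above the untreated ones and PF-04554878 values below them, with no overlap. Y15 against untreated cells was 0.57 ± 0.12 (1.48-fold, interval 0.29 to 0.84, adjusted p = 0.0081) and PF-04554878 against untreated cells -0.46 ± 0.12 (0.726-fold, interval -0.74 to -0.18, adjusted p = 0.011). SRXN1 was the only one of the 13 probes called in opposite directions by the compounds, and the direct difference of Y15 against PF-04554878 was 1.03 ± 0.12 (2.04-fold, interval 0.75 to 1.31, adjusted p = 0.00016). That difference held in every alternative, while the Y15 call was lost without Y15 replicate 2 (0.50, adjusted p = 0.073) and the PF-04554878 call without PF-04554878 replicate 1 (-0.29, adjusted p = 0.06). With median scaling the Y15 change was 0.23 over tested probes (adjusted p = 0.17) and -0.58 over all probes, where the median probe stood at -0.67.

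**Figure D4:**
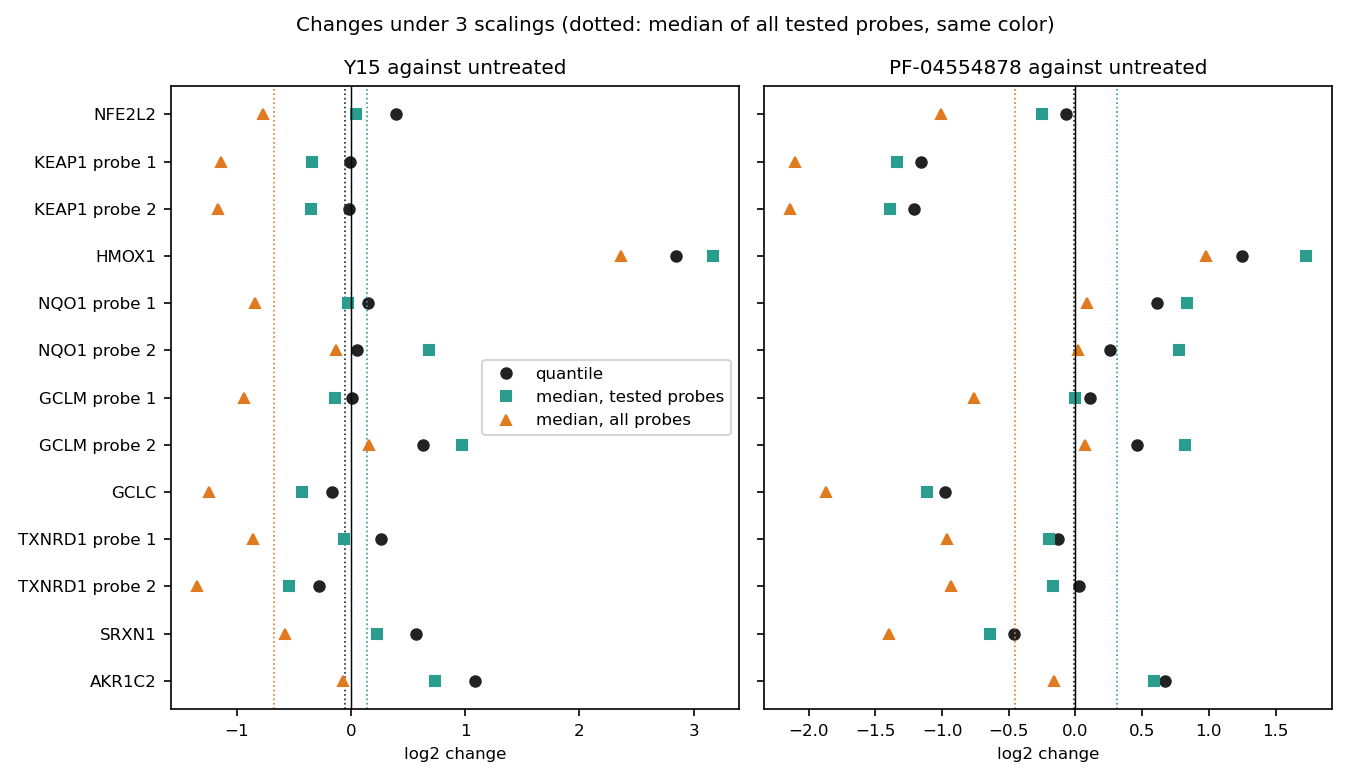
Log2 change (horizontal axis) of the 13 tested probes against untreated cells, for Y15 on the left and PF-04554878 on the right, with quantile normalization (circles) and with arrays scaled to their median over the tested probes (squares) or over all probes (triangles), dotted lines marking the median tested probe of each. HMOX1 stays right of 0 and, under PF-04554878, KEAP1, GCLC and SRXN1 stay left of 0 with each scaling.

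The wider pathway was described with 83 further genes in lists by role, also chosen with earlier results of these data known. Of these, 73 had a named probe and 62 a tested one, each described by its brightest tested probe. In Y15-treated against untreated cells 21 were higher and 11 lower (33.9% and 17.7%), against a background of 16.7% and 21.4% over 11388 genes. In PF-04554878-treated against untreated cells 20 were higher and 18 lower (32.3% and 29%), against 27.2% and 35%. Y15 against PF-04554878 gave 23 higher and 15 lower (37.1% and 24.2%), against 32.9% and 27.6%. The median change of the 62 genes was 0.07, 0.02 and 0.03 in these comparisons, beside -0.05, -0.07 and 0.05 over all genes. With each array scaled to its median over all probes, the Y15 counts turned to 5 higher and 47 lower and the PF-04554878 counts to 9 higher and 39 lower, so called directions against untreated cells that flip with that scaling are named below. Many genes below whose changes were not called were called lower with that scaling. Under Y15 these included MGST2, GLRX2, TXNIP, TXNRD2, PRDX1, PGD, TALDO1, ME1, IDH1 and EPHX1. Also among them under Y15 were PIR, NQO2, CBR1, ABCC3, BLVRA, ABCB6, FTL, CAT, SOD1 and SOD2 (all -1.45 to -0.31). Under PF-04554878 they included NFE2L1, TXN, PRDX4, PGD, TALDO1, ME1, BLVRB, SLC48A1 and SOD2 (-1.2 to -0.46). BACH2, CHAC1, ABCC4 and CBR3 are in these counts although they were undetected in at least 1 group. They passed the filter only through groups in which they are higher. CBR3 was counted between the compounds alone, where Y15 was at least 1.05-fold higher, short of the 1.2-fold of a call.

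Among 11 tested regulators, 6 were higher and 3 lower under Y15 than in untreated cells (54.5% and 27.3%, all genes 16.7% and 21.4%). Under PF-04554878, 4 were higher and 2 lower than in untreated cells (36.4% and 18.2%, all genes 27.2% and 35%). BACH2, counted as lower under Y15, was not detected there, and untreated cells were at least 1.12-fold higher, short of the 1.2-fold of a call. Its second probe gave -0.09 under Y15 and was not called. MAFF and MAFG code for small MAF proteins, the partners of NRF2 on DNA. MAFG had 8.41 and 8.50 on the Y15 arrays, 10.11 and 10.34 on the PF-04554878 arrays and 7.49 and 7.53 on the untreated arrays. Its change was 0.95 under Y15 (adjusted p = 0.00035, but 0.10 and not called with median scaling over all probes) and 2.71 under PF-04554878 (adjusted p = 1e-06), and a second probe gave 0.81 and 2.69. MAFF was higher by 1.70 under Y15 (adjusted p = 0.00014) and by 0.95 under PF-04554878 (adjusted p = 0.00072), the opposite order of the compounds. SQSTM1 codes for p62, an autophagy receptor that binds KEAP1 and is itself an NRF2 target. It had 12.59 and 12.46 under Y15, 11.12 and 11.30 under PF-04554878 and 11.60 and 11.60 in untreated cells, with Y15 highest and PF-04554878 lowest. It was higher under Y15 (0.93, adjusted p = 0.00031, but 0.05 and not called with median scaling over all probes) and lower under PF-04554878 (-0.39, adjusted p = 0.0083, lost without PF-04554878 replicate 1, adjusted p = 0.052, and with median scaling over tested probes, at -0.17), and Y15 exceeded PF-04554878 by 1.32 (adjusted p = 1.4e-05).

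RBX1, the ring subunit of the ligase that KEAP1 feeds, was lower under PF-04554878 (-1.56, adjusted p = 3.7e-05) and under Y15 (-0.66, adjusted p = 0.0083, lost without Y15 replicate 1, adjusted p = 0.082). The probe of CUL3, the scaffold of that ligase, was detected on no array. BTRC and GSK3B belong to a second route of NRF2 degradation that does not need KEAP1. Under PF-04554878 both were higher, BTRC by 1.16 (adjusted p = 1e-05) and GSK3B by 1.32 (adjusted p = 1.2e-05). Under Y15 GSK3B was higher by 0.64 (adjusted p = 0.0017, -0.49 with median scaling over all probes) and BTRC changed by -0.32 (adjusted p = 0.018), which was lost without untreated replicate 2, Y15 replicate 1 or Y15 replicate 2 (highest adjusted p = 0.091) and, at 0.01, with median scaling over tested probes. NFE2L1, a relative of NFE2L2 that controls proteasome genes, was higher under Y15 (0.76, adjusted p = 0.0014, -0.39 with median scaling over all probes) and exceeded its PF-04554878 level by 1.03 (adjusted p = 9.7e-05).

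Of 16 tested glutathione genes, 5 were higher and 4 lower under Y15 (31.2% and 25%, all genes 16.7% and 21.4%). Under PF-04554878, 6 were higher and 6 lower (37.5% each, all genes 27.2% and 35%). SLC3A2, the partner of SLC7A11, had 12.49 and 12.45 on the Y15 arrays, 10.79 and 11.14 on the PF-04554878 arrays and 10.40 and 10.62 on the untreated arrays. It was higher by 1.96 under Y15 (adjusted p = 4.6e-05) and by 0.45 under PF-04554878 (adjusted p = 0.017), where the call was lost without untreated replicate 1 or PF-04554878 replicate 2 (highest adjusted p = 0.11) and the change was -0.21 with median scaling over all probes. A dimmer SLC3A2 probe gave 1.36 under Y15 and 0.98 under PF-04554878, both called. CHAC1, an enzyme that degrades glutathione, was not detected in untreated cells and passed the filter only through the treated arrays, so that it had to differ. It was at least 2.63-fold higher under Y15 and at least 1.18-fold higher under PF-04554878, the PF-04554878 bound being short of the 1.2-fold of a call, and under PF-04554878 it was not called with median scaling over all probes (0.19). Between the compounds, where it was detected on all 4 arrays, Y15 was higher by 1.15 (adjusted p = 1.2e-05). GPX2, a glutathione peroxidase and NRF2 target, was higher under Y15 (0.59, adjusted p = 0.0012, -0.25 with median scaling over all probes) and lower under PF-04554878 (-0.54, adjusted p = 0.00065, not called with median scaling over tested probes, at -0.26), with a difference of 1.13 between them (adjusted p = 1.4e-05). GPX4, which removes lipid peroxides, gave -0.66 under each compound (adjusted p = 0.0096 for Y15 and 0.0048 for PF-04554878), and the Y15 call was lost without either Y15 array (highest adjusted p = 0.074). With median scaling over the tested probes GPX4 was not called, at -0.21 under Y15 and 0.23 under PF-04554878.

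The lowest glutathione genes under PF-04554878 were the glutaredoxin GLRX (-2.16, adjusted p = 3.4e-06), the microsomal transferase MGST2 (-1.90, adjusted p = 1.9e-06) and the mitochondrial glutaredoxin GLRX2 (-1.40, adjusted p = 5.5e-05). Under Y15 the same genes gave -0.50 (adjusted p = 0.012), -0.22 (adjusted p = 0.09) and -0.04 (adjusted p = 0.85), and each was higher under Y15 than under PF-04554878, by 1.66, 1.67 and 1.36 (highest adjusted p = 6.9e-05). The GLRX call under Y15 was lost without untreated replicate 1, Y15 replicate 1 or Y15 replicate 2 (highest adjusted p = 0.082). A second GLRX2 probe gave -0.45 under Y15 and -0.64 under PF-04554878, both called. The transferase GSTM1 was higher under PF-04554878 (1.25, adjusted p = 6.8e-06) and, by 0.45, under Y15 (adjusted p = 0.004, -0.68 with median scaling over all probes), while a second GSTM1 probe gave -0.10 under Y15 and 0.14 under PF-04554878 and was not called.

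Of 11 tested thioredoxin and peroxiredoxin genes, 5 were higher and 3 lower under Y15 (45.5% and 27.3%, all genes 16.7% and 21.4%). Under PF-04554878, 6 were higher and 2 lower (54.5% and 18.2%, all genes 27.2% and 35%). Peroxiredoxins reduce peroxides with electrons from thioredoxin and are the substrates of SRXN1. PRDX1, the cytosolic form and a classic NRF2 target, had 12.54 and 12.57 on the Y15 arrays, 11.18 and 10.95 on the PF-04554878 arrays and 12.66 and 12.57 on the untreated arrays. It was lower under PF-04554878 (-1.55, adjusted p = 6.9e-06) and gave -0.06 under Y15 (adjusted p = 0.68), and its second probe gave -1.56 under PF-04554878. PRDX3, the mitochondrial form, had 10.55 and 10.73 under Y15, 12.35 and 12.07 under PF-04554878 and 12.17 and 11.86 in untreated cells. It was lower under Y15 (-1.38, adjusted p = 0.00025) and gave 0.19 under PF-04554878 (adjusted p = 0.26), where it was -0.22 with median scaling over all probes and 0.54 and called higher over tested probes. Y15 against PF-04554878 was 1.49 for PRDX1 (adjusted p = 9.9e-06) and -1.57 for PRDX3 (adjusted p = 3.3e-05). TXN and PRDX4 were also lower under Y15, by -0.48 (adjusted p = 0.018) and -0.92 (adjusted p = 0.003), and were not called under PF-04554878. A second TXN probe gave -0.55 under Y15 (adjusted p = 0.016), while the first lost its call without untreated replicate 1 or Y15 replicate 1. TXNRD2 was lower under PF-04554878 (-0.65, adjusted p = 0.00085) and not called under Y15.

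The sestrins, stress-induced proteins that restrain mTOR signaling and assist peroxiredoxins, were higher under both compounds. SESN1 gave 0.80 under Y15 (adjusted p = 0.0018, -0.33 with median scaling over all probes) and 2.59 under PF-04554878 (adjusted p = 1.7e-06). SESN2 gave 1.42 under Y15 (adjusted p = 0.00018) and 1.75 under PF-04554878 (adjusted p = 1.4e-05). It was detected on only 1 untreated array, and its untreated levels of 6.91 and 6.92 lay at the lowest detected signal (6.93 and 6.90). The size of these SESN2 changes is therefore uncertain. SESN3 gave 0.63 under Y15 (adjusted p = 0.0031, -0.23 with that scaling) and 0.42 under PF-04554878 (adjusted p = 0.01, -0.32 with that scaling), the PF-04554878 call being lost without untreated replicate 2 or PF-04554878 replicate 1 (highest adjusted p = 0.068). TXNIP, which binds and inhibits thioredoxin, was higher under PF-04554878 (1.24, adjusted p = 0.00013) and gave 0.04 under Y15 (adjusted p = 0.83).

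Of 6 tested heme and iron genes, 2 were higher and 0 lower under Y15 (33.3% and 0%, all genes 16.7% and 21.4%). At an unadjusted p below 0.05 there were 3 under Y15. Under PF-04554878, 0 were higher and 2 lower (0% and 33.3%, all genes 27.2% and 35%). Biliverdin, the product of HMOX1, is reduced to bilirubin by BLVRA. BLVRB codes for biliverdin reductase B, which is not placed at that step here. BLVRB had 8.38 and 8.46 on the Y15 arrays, 7.50 and 7.38 on the PF-04554878 arrays and 7.34 and 7.36 on the untreated arrays, and was higher under Y15 (1.07, adjusted p = 0.00011). BLVRA had 10.23 and 10.17 under Y15, 8.90 and 8.92 under PF-04554878 and 9.99 and 9.88 in untreated cells. It was lower under PF-04554878 (-1.03, adjusted p = 2.4e-05) and not called under Y15 (0.26, adjusted p = 0.048, just short of the fold required). SLC48A1, a heme transporter, was higher under Y15 (0.82, adjusted p = 0.0003, -0.25 with median scaling over all probes), and ABCB6, a porphyrin transporter, was lower under PF-04554878 (-1.06, adjusted p = 0.00011). For each of these 4 genes Y15 exceeded PF-04554878, by 0.66 to 1.29 (highest adjusted p = 0.00036). A dimmer SLC48A1 probe gave less, 0.31 for Y15 against untreated cells (adjusted p = 0.025) and 0.14 for Y15 against PF-04554878 (adjusted p = 0.2). FTL, the ferritin light chain and an NRF2 target, gave 0.04 under Y15 (adjusted p = 0.81) and 0.30 under PF-04554878 (adjusted p = 0.077). It was called higher under both with median scaling over tested probes (0.41 for Y15 and 1.08 for PF-04554878), lower under Y15 over all probes (-0.40) and higher under PF-04554878 without untreated replicate 1. The constitutive HMOX2 was detected on 1 array and not tested.

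Of 9 tested enzymes and exporters for quinones, carbonyls and xenobiotics, 2 were higher and 1 lower under Y15. These were 22.2% and 11.1%, beside 16.7% and 21.4% of all genes. Under PF-04554878, 2 were higher and 5 lower (22.2% and 55.6%, all genes 27.2% and 35%). EPHX1, the microsomal epoxide hydrolase, had 9.20 and 9.27 on the Y15 arrays, 10.94 and 11.12 on the PF-04554878 arrays and 9.40 and 9.36 on the untreated arrays. It was higher under PF-04554878 (1.66, adjusted p = 3.8e-06) and gave -0.14 under Y15 (adjusted p = 0.29), where it was called lower with median scaling over all probes (-1.27) and over tested probes (-0.46). The exporter ABCC3 was also higher under PF-04554878 (0.77, adjusted p = 0.00046, -0.01 with median scaling over all probes). PIR, an iron-binding NRF2 target, was lower under PF-04554878 (-1.01, adjusted p = 0.00017, and -0.78 with a dimmer probe, which was also lower under Y15, at -0.50), as were NQO2 (-0.77, adjusted p = 0.00055), CBR1 (-0.68, adjusted p = 0.0024) and AKR1C3, and UGDH gave -0.37 (adjusted p = 0.01, lost without PF-04554878 replicate 2, adjusted p = 0.059). UGDH, which makes the sugar for glucuronidation, was higher under Y15 with AKR1C3 (0.77 each, adjusted p = 0.00072 for UGDH), and both turned below 0 with median scaling over all probes (-0.34 and -0.39). The 1 gene counted as lower under Y15 was the exporter ABCC4, which passed the filter only through the untreated arrays. It was not detected under Y15, and untreated cells were at least 1.04-fold higher, short of the 1.2-fold of a call.

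Of 6 tested NADPH-supplying enzymes, 1 was higher and 0 lower under Y15 (16.7% and 0%, 2 at an unadjusted p below 0.05), and 1 higher and 1 lower under PF-04554878 (16.7% each). The shares of higher and lower genes over all genes were 16.7% and 21.4% for Y15 and 27.2% and 35% for PF-04554878. Transketolase (TKT) was higher under Y15 (0.41, adjusted p = 0.033) and under PF-04554878 (0.53, adjusted p = 0.0063), and isocitrate dehydrogenase IDH1 was lower under PF-04554878 (-0.38, adjusted p = 0.03). Each of these calls was lost without at least 1 array. TKT lost its Y15 call without untreated replicate 1, untreated replicate 2 or Y15 replicate 2 (highest adjusted p = 0.2) and its PF-04554878 call without PF-04554878 replicate 2 (adjusted p = 0.054), and IDH1 without untreated replicate 1, either Y15 array or PF-04554878 replicate 2 (highest adjusted p = 0.19). PGD, TALDO1 and ME1, which NRF2 is known to regulate, had changes of -0.21 to 0.11 and were not called in either comparison. With median scaling over all probes they were called lower under both compounds (-1.34 to -0.46), and over tested probes ME1 was lower under Y15 (-0.53) and TALDO1 higher under PF-04554878 (0.29). A dimmer IDH1 probe differed, with -0.44 under Y15 (adjusted p = 0.015) and -0.21 under PF-04554878 (adjusted p = 0.12). With median scaling over all probes TKT turned to -0.70 under Y15 and -0.21 under PF-04554878. Of the 3 genes against superoxide and peroxide, catalase (CAT) was higher under PF-04554878 (0.63, adjusted p = 0.0018, -0.20 with that scaling), and SOD1 and SOD2 were not called in either comparison, although a dimmer SOD2 probe was higher under PF-04554878 (0.36). With median scaling over tested probes SOD1 was higher under both compounds (0.50 for Y15 and 0.79 for PF-04554878) and SOD2 lower under Y15 (-0.33). OSGIN1, TRIM16 and TRIM16L, listed as other NRF2 targets, had no tested probe.

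**Figure D5:**
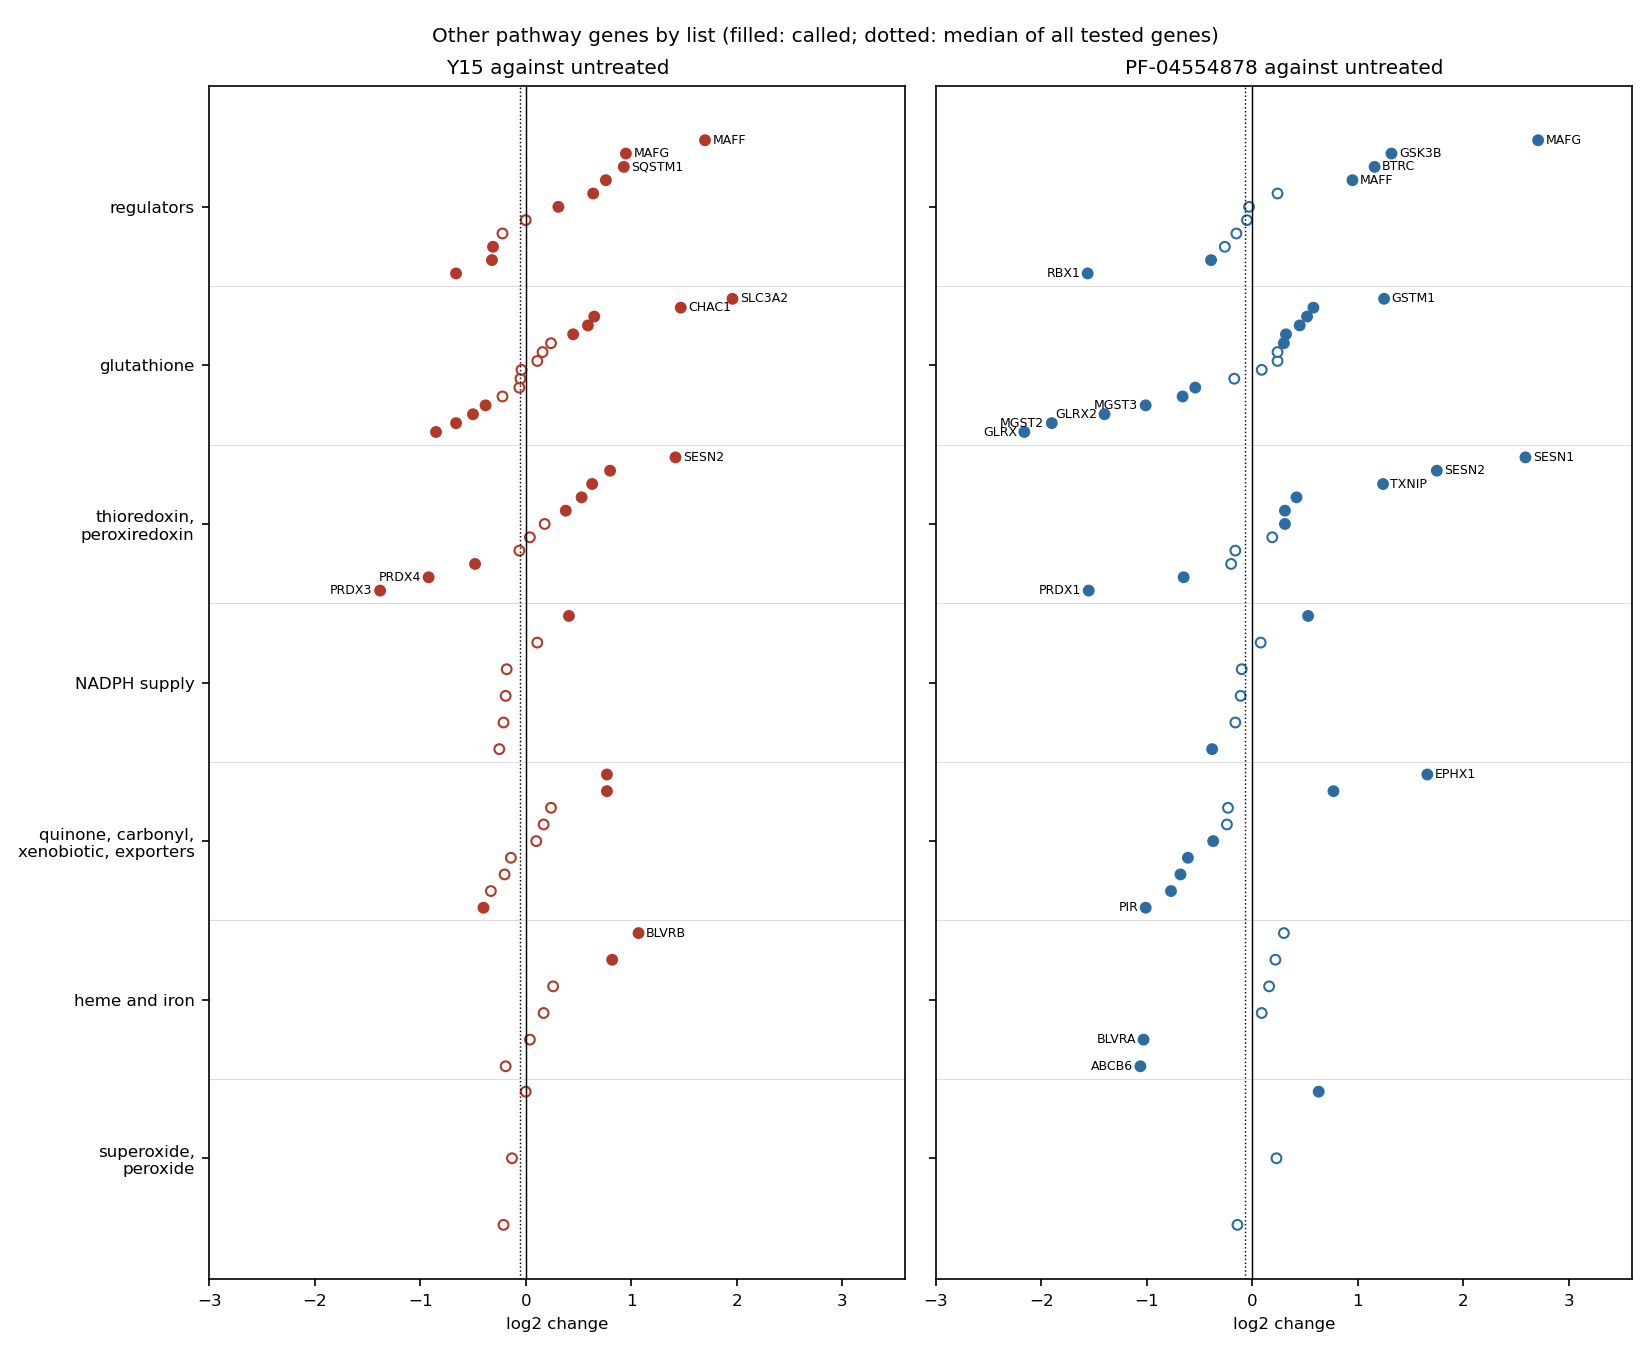
Log2 change against untreated cells (horizontal axis) of 62 pathway genes in 7 lists, for Y15 on the left and PF-04554878 on the right, with filled points for calls and a dotted line at the median of all tested genes (-0.05 and -0.07). PRDX1, MGST2 and GLRX lie far left under PF-04554878, and SLC3A2, MAFF and CHAC1 far right under Y15.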

How the data were processed

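TT cells treated with Y15 or PF-04554878, or left untreated, were measured on 2 Illumina bead arrays per group, and groups were taken from the GEO labels. The authors' deposited intensity per probe was a mean over beads on a linear scale, summarized in GenomeStudio (per the submitters' processing notes, whose version is not given in the sources used here), without background subtraction. The deposited detection p-value was the fraction of negative controls with an equal or higher signal. A second deposited table gave log2 values after the authors' quantile normalization in lumi. It matched the values recomputed here to within 5e-09, had a median of 6.81 in each column and was not centered. Probes were named from the HumanHT-12 v4 annotation, which their identifiers matched, although the chip in the methods is the HumanRef-8. That annotation is old, and symbols were updated through gene identifiers. The labels describe the source of RNA as frozen tissue, and the methods as cultured cells.

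Of 47323 probes, 47317 had values, and 30111 of these named 1 gene, 8 several and 17198 none. Intensities were log2 transformed and quantile normalized over all probes. Probes with a detection p-value below 0.01 on at least 2 arrays were tested (18876, in 11388 genes). Group means were fitted to all 6 arrays in limma 3.58.1 (R 4.3.3), with 3 residual and 5.24 prior degrees of freedom and two-sided tests. P-values were adjusted by Benjamini-Hochberg over all probes within a comparison, and a call required an adjusted p below 0.05 and a change of at least 1.2-fold. The methods give the same 2 thresholds but name no adjustment of the p-value. Precision was limited by the number of arrays. Log2 changes had a median SE of 0.10, and the typical 95% interval was 0.23 to either side. Figures were drawn with matplotlib 3.10.9 and pandas 2.3.3 in Python 3.11.15. The procedure was tested on simulated data.

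All probes of the 10 genes were reported. Of the pathway lists, genes with the greatest called changes were named, up to 4 per list and comparison, with members of any count of 5 or fewer. Not every gene under this rule is named. Genes of like pattern were found for HMOX1 and TXNRD1, and not for SLC7A11, which had no tested probe. The genes and lists were chosen with earlier results of these data known. Alternatives were a replicate block, background correction (nec, offset 16), median scaling over all or over tested probes, the deposited value table, other detection filters, 1 probe per gene, a trended and robust prior, an unadjusted p and leaving out each array. A block with crossed Y15 numbers, and most alternatives for the pathway lists, were added after the data were seen.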

Additional observations from a re-analysis of the deposited data

Results flagged for a closer look

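SRXN1 was singled out for its calls with quantile normalization. With it the compounds moved SRXN1 in opposite directions from the same untreated arrays, and the difference itself passed the test. It was higher by 0.57 under Y15 and changed by -0.46 under PF-04554878 against untreated cells. Y15 exceeded PF-04554878 by 1.03 (limma adjusted p = 0.00016, higher on 2 of 2 Y15 arrays than on either PF-04554878 array). The opposite directions depended on the scaling. With median scaling over all probes SRXN1 was lower under both compounds, at -0.58 for Y15 and -1.4 for PF-04554878. Over tested probes the Y15 change was 0.23 and not called. Both calls against untreated cells were also lost without an array, as given above.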

How the results depend on the processing

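KEAP1 and GCLC under PF-04554878, HMOX1 in all 3 comparisons, and Y15 against PF-04554878 for KEAP1, GCLC, SRXN1 and NQO1 probe 1 kept direction and call in each alternative that could test them. For HMOX1 this counts only between the compounds, since against untreated cells it had to differ. The filter of detection on all 6 arrays left out HMOX1 and NQO1 probe 2, and 1 probe per gene left out the dimmer probes. The deposited table, the absence of a filter and a trended and robust prior left all 39 values for single probes on their side of the threshold. With median scaling over all probes the median tested probe moved to -0.67 for Y15 and -0.45 for PF-04554878 against untreated cells, and 9 values turned. Against untreated cells these were, for Y15, NFE2L2 (-0.77), NQO1 probe 1 (-0.84), GCLM probe 1 (-0.94), TXNRD1 probe 1 (-0.86), SRXN1 (-0.58) and AKR1C2 (-0.07), and for PF-04554878 GCLM probe 1 (-0.76), TXNRD1 probe 2 (-0.93) and AKR1C2 (-0.16). Relative to the median probe, SRXN1 was then at 0.09 and AKR1C2 at 0.60 and 0.29.

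For Y15 against untreated cells, 10 of the 13 probes were called with that scaling (1 higher, 9 lower), 8 with the median over tested probes (4 higher, 4 lower) and 7 at an unadjusted p (6 higher, 1 lower), in place of 4. Over all probes that comparison had 14670 calls (721 higher, 13949 lower) and 12546 calls (7779 higher, 4767 lower) under these scalings, in place of 6865, and 52 pathway genes in place of 32. With 1 probe per gene, where fewer were tested, calls over all numbered 4353 for Y15 and 7104 for PF-04554878 against untreated cells and 6923 between the compounds. Leaving out each array gave 3518 to 6674 calls over all probes for Y15 against untreated cells (lowest without Y15 replicate 1, and 3853 without Y15 replicate 2) and 6 to 10 of the 13 probes for Y15 against PF-04554878 (6 without either Y15 array).

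Replicate numbers do not pair the arrays by any label, and deviations of same-numbered arrays correlated at -0.28 (Y15 and untreated), 0.21 (PF-04554878 and untreated) and -0.10 (Y15 and PF-04554878). With the replicate number as a block, 5, 8 and 10 of the 13 probes were called in place of 4, 8 and 10, and 6513, 10872 and 10624 over all probes. The added call was TXNRD1 probe 2 for Y15 against untreated cells (-0.28, adjusted p = 0.045), and the block changed no other call among the 13. Crossing the Y15 numbers, a choice made after seeing the data, gave 5, 8 and 10 of the 13.

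Y15 arrays were the dimmest, at 169 and 180 above background, so low probes there are the least certain. SLC7A11, NQO1 probe 2 and 5 AKR1C2 probes were near or below detection, and their levels carry little information.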
